A study of Mus musculus with 18 samples.

Results

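The 10 genes Clec4a1, Clec4a2, Clec4a3, Clec4d, Clec4e, Clec4n, Clec5a, Clec7a, Clec9a and Clec12a encode C-type lectin receptors, surface proteins of macrophages and other myeloid cells. They were taken as a named list and not by a cutoff on measured values, but earlier results of these data were known when the list was chosen. Each had 1 probe set assigned to that gene alone, so they were 10 of the 19475 genes measured. The study asked how macrophages that lack Wbp7, also named Kmt2b and known as a methyltransferase for lysine 4 of histone H3, differ from heterozygous cells before and after a bacterial stimulus. Primary macrophages were grown from mouse bone marrow in medium conditioned by L929 cells and were used on the 7th day of differentiation. The mice were of a mixed background, C57BL/6 (94%) and 129/Ola (6%). Each of the 18 expression arrays measured 1 sample.

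The HET cells were Wbp7+/-, with 1 mutant allele, and served as controls. The KO cells were Wbp7-/-. Both genotypes were studied untreated and after lipopolysaccharide (LPS, 10 ug/ml), a cell wall component of Gram-negative bacteria. It was applied for either 2 h or 4 h. The 6 groups, with 3 arrays each, were untreated HET, HET at 2 h, HET at 4 h, untreated KO, KO at 2 h and KO at 4 h. Wild-type cells were not analysed here, so every genotype difference is one between cells without functional Wbp7 alleles and cells with 1. The labels number the replicates 1 to 3 but do not say whether these were separate animals, so the p-values measure the spread between these samples only. Levels are log2 signals, where a difference of 1 is a 2-fold change. Each group holds only 3 arrays, which limits the precision of all values.

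C-type lectin receptors bind sugars, lipids and other structures on microbes and on damaged cells. The activating receptors signal through the kinase Syk, either through a motif of their own or through the adaptor proteins FcRgamma (Fcer1g) and DAP12 (Tyrobp), and from Syk through Card9, Bcl10 and Malt1 to NF-kB. Others carry an inhibitory motif, called ITIM, which recruits phosphatases. In mice most of these genes lie in the natural killer gene region of chromosome 6. In the RefSeq order of genes, 6 members lay in a stretch of 9 protein-coding genes from Clec4a1 to Clec4e. A second stretch of 6 genes ran from Clec12a to Clec7a and held 3 members.

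The promoters of 5 members are shown because these genes passed in LPS comparisons without pairing described below, or, for Clec4d, because the gene is the direct neighbour of Clec4e with a smaller response. Each is the RefSeq sequence (GRCm38.p6) from 250 bases before to 50 bases after the annotated start, printed 5′ to 3′ along the gene, with motif matches in capitals. Motifs were searched on both strands: C/EBP as TTGCNNAA, PU.1 as GAGGAA, AP-1 as TGANTCA, the core of the interferon-stimulated response element as GAAANNGAA, the TATA box as TATAAA, and the NF-kB site by name. They were Clec4e at chr6:123289822-123290121, minus strand, Clec4d at chr6:123261857-123262156, plus strand, Clec5a at chr6:40585756-40586055, minus strand, Clec9a at chr6:129408612-129408911, plus strand, and Clec12a at chr6:129349994-129350293, plus strand.
Clec4e: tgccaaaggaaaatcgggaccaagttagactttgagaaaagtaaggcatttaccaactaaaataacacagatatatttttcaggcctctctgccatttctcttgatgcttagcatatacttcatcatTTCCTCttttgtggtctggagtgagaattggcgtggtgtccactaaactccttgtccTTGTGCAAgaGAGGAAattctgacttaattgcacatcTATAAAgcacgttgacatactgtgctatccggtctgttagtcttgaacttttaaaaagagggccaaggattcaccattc
Clec4d: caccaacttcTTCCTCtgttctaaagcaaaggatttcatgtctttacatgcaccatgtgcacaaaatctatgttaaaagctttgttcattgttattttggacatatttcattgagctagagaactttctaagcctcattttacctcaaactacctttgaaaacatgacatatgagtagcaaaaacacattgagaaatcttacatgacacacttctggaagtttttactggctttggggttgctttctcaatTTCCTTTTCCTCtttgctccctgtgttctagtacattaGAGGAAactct
Clec5a: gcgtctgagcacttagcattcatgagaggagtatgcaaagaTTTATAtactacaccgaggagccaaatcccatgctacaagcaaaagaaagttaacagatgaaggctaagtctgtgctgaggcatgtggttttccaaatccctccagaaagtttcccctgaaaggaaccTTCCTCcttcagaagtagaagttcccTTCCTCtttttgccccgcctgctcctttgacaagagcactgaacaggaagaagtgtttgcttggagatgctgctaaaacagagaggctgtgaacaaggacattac
Clec9a: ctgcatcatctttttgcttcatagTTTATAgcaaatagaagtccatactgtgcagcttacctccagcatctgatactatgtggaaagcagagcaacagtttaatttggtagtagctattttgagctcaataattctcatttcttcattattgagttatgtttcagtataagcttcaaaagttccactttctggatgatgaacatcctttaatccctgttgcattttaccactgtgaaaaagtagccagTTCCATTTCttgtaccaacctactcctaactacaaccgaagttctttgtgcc
Clec12a: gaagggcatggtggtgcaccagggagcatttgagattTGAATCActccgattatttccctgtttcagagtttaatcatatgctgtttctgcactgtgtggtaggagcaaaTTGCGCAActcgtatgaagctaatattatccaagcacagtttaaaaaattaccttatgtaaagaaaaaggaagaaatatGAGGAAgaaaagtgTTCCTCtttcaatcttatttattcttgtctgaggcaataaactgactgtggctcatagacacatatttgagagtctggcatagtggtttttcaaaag

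Positions below are counted from 0 at the first transcribed base. The Clec4e promoter held a C/EBP match from −66 to −59, PU.1 matches from −56 to −51 and from −123 to −118, and a TATA box from −29 to −24. The Clec4d window held PU.1 matches from −240 to −235, from 7 to 12 and from 39 to 44, and the interferon element core from 1 to 9, which overlaps the second of these. Clec5a held PU.1 matches from −81 to −76 and from −55 to −50, and the TATA box letters from −209 to −204. Clec12a held a C/EBP match from −140 to −133, which reads the same on both strands, PU.1 matches from −61 to −56 and from −47 to −42, and an AP-1 match from −213 to −207. Clec9a held the interferon element core from −2 to 6, the TATA box letters from −226 to −221 and no PU.1 match.

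Of the 9 members with a promoter entry (all but Clec4n), 7 held the PU.1 letters, which stood in 28.3% of all 32851 promoters of the same length. The TATA box letters were found in 5 of the 9, against 13.6% of all promoters. They began at −29 in Clec4e and at −161 in Clec4a2. On the reverse strand they began at −209 in Clec5a, −226 in Clec9a and 42 in Clec7a. Clec4a3 and Clec7a had 2 windows each and were counted if either matched, while the shares of all promoters count each window. C/EBP was found in 2 (Clec4e and Clec12a; 10.8% of all), AP-1 in 2 (Clec4a2 and Clec12a; 7.81%), the interferon element core in 2 (Clec4d and Clec9a; 8.56%) and the NF-kB site in none (8.46%). A match is a description of letters in this window, not a binding site.

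The deposited signals of the 18 arrays had medians from 8.05 to 8.13 over all probe sets. Over genes, the lower quartile of an array lay between 6.78 and 7.09 and its highest gene between 14.51 and 14.69. The probe set of Kmt2b read 10.05 to 10.97 in the HET arrays and 9.94 to 10.73 in the KO arrays, and KO minus HET was −0.24 in untreated cells (95% interval −0.58 to 0.09, limma adjusted p = 1). The sources used here do not place the probes relative to the deleted part, so this level is no check of the genotype labels, and HET and KO are used as the labels give them. Of 10 macrophage markers, 9 were measured and all 9 lay above the median of every array. Of 10 dendritic cell markers, none lay above the median on all arrays, and the mean of that list ranged from 7.33 to 8.14. The lymphocyte markers Cd79a, Ms4a1, Ncr1 and Klrb1c, 4 of 8 measured, and the neutrophil markers Ly6g, Cxcr2 and Retnlg, 3 of 14, lay below the lower quartile on all arrays. Of the same lists, 4 neutrophil markers and no lymphocyte marker lay above the median on all arrays, as did 3 of 4 measured monocyte markers and 3 of 5 stromal markers.

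The HET arrays numbered replicate 1 stood apart from the other 15 at all 3 times. The mean of a list of 19 measured cell cycle genes was 8.56 to 9.21 in these 3 arrays and 10.97 to 11.96 in the others. The mean of 7 measured MHC class II genes was 11.13 to 11.49 against 8.74 to 10.64, and that of the dendritic cell markers 7.72 to 8.14 against 7.33 to 7.70. The means of the macrophage markers (13.25 to 13.42 against 12.99 to 13.17) and of the lymphocyte markers (6.62 to 6.75 against 6.29 to 6.49) were higher as well. Among the members, Clec7a, Clec4n and, by a small margin, Clec4a3 were higher in these 3 arrays than in all others. Clec4d and Clec12a were highest in HET replicate 1 at each time, but their ranges over all times overlapped with those of the other arrays. The results below use all 18 arrays. Values without HET replicate 1 at all 3 times are given where the call of a member was lost or gained. They are also given where the LPS change of a member in HET moved by over 0.1.

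**Figure D1:**
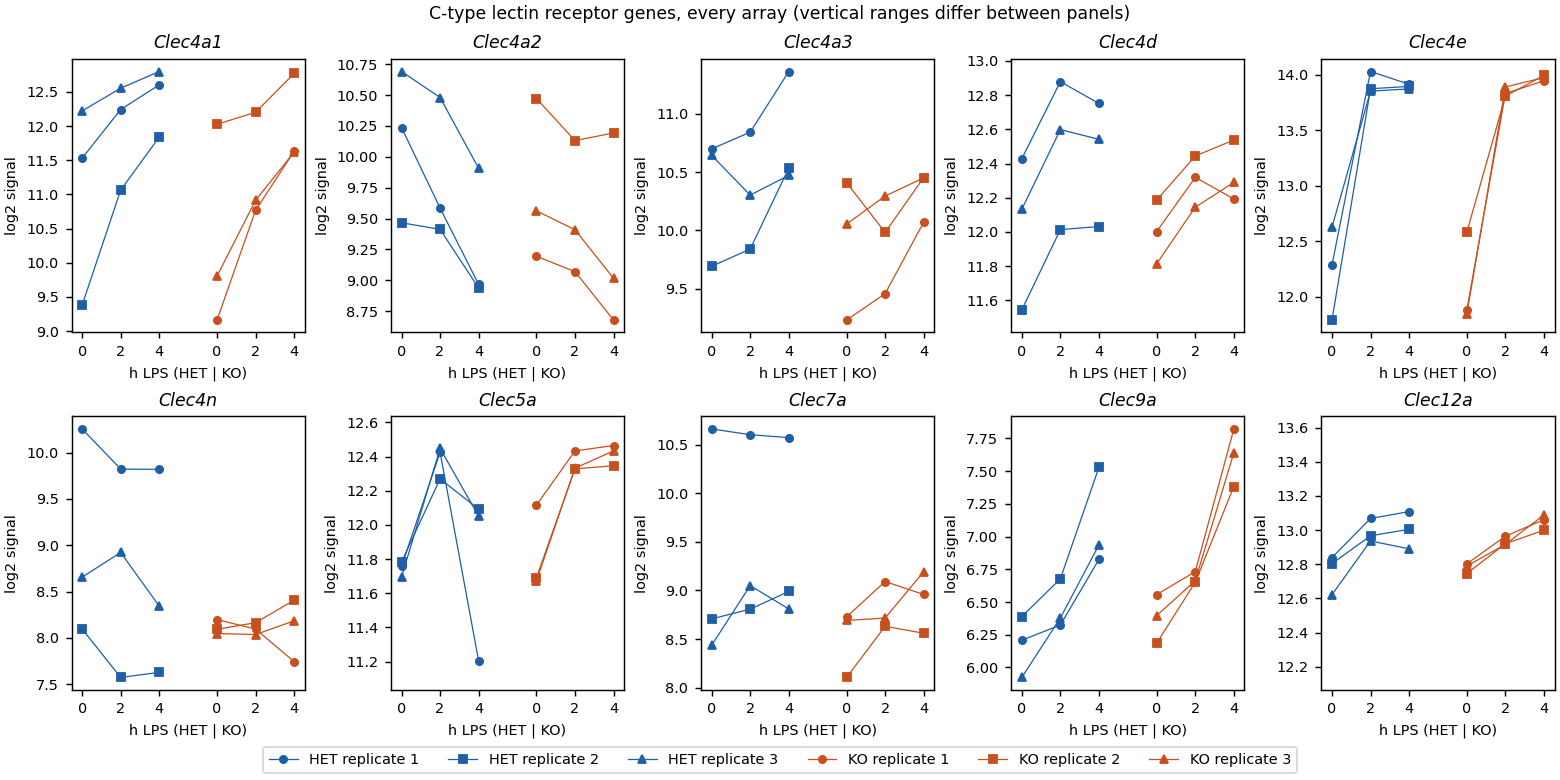
Log2 signal of the 10 C-type lectin receptor genes on every array, by hours of LPS, with HET in blue and KO in orange and lines joining arrays of 1 genotype that share a replicate number. Vertical ranges differ between panels. Clec4e rose from 11.79 to 12.63 in untreated cells to 13.81 to 14.03 after LPS, and the HET replicate 1 arrays lie apart for Clec7a and Clec4n.

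LPS raised a few of the 10 genes, and in the test without pairing none passed in the lower direction. With the numbered set, the 3 arrays of a genotype that share a replicate number, as a fixed term, more members rose, and Clec4a2 fell at 4 h in both genotypes and Clec4n in HET. Clec4e rose about 3-fold by 2 h in both genotypes and stayed there at 4 h. Clec9a rose by 4 h in both genotypes from a low signal. Clec12a rose by at most 1.21-fold at 4 h in both genotypes, and Clec5a rose in HET at 2 h and in KO at 4 h. The change of Clec5a at 2 h was 0.64 in HET and 0.54 in KO, where it did not pass. In HET at 4 h Clec5a passed when the replicate 1 array of that group was left out. The genotypes did not differ past the threshold for any member at any time.

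In counts, 3 of the 10 members rose in HET at 2 h (Clec4e, Clec5a and Clec12a), where 5.56% of all genes rose and 10.0% fell. In HET at 4 h, 3 rose (Clec4e, Clec9a and Clec12a), where 15.7% of all genes rose and 20.7% fell. In KO at 2 h, 1 rose (Clec4e), against 2.0% of all genes, and 1.35% fell. In KO at 4 h, 4 rose (Clec4e, Clec5a, Clec9a and Clec12a), against 6.48% of all genes, and 9.28% fell. The median change of the 10 members was 0.26 in HET at 2 h, 0.33 in HET at 4 h, 0.30 in KO at 2 h and 0.41 in KO at 4 h, beside medians of 0.02, 0.09, 0.02 and 0.02 over all genes. From 2 h to 4 h, 1 member rose in HET and 1 in KO, Clec9a in both. Over all genes 3.8% rose and 4.39% fell in HET over that interval, and 2.69% rose and 1.69% fell in KO.

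Without HET replicate 1 at all 3 times, the LPS counts were 2 in HET at 2 h, 3 in HET at 4 h, 2 in KO at 2 h and 4 in KO at 4 h. Over all genes, 4.86%, 14.0%, 3.55% and 9.63% rose under that setting. Clec12a was the member lost in HET at 2 h (0.24, adjusted p = 0.0683), and Clec5a the one gained in KO at 2 h (0.54, adjusted p = 0.00513).

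**Figure D2:**
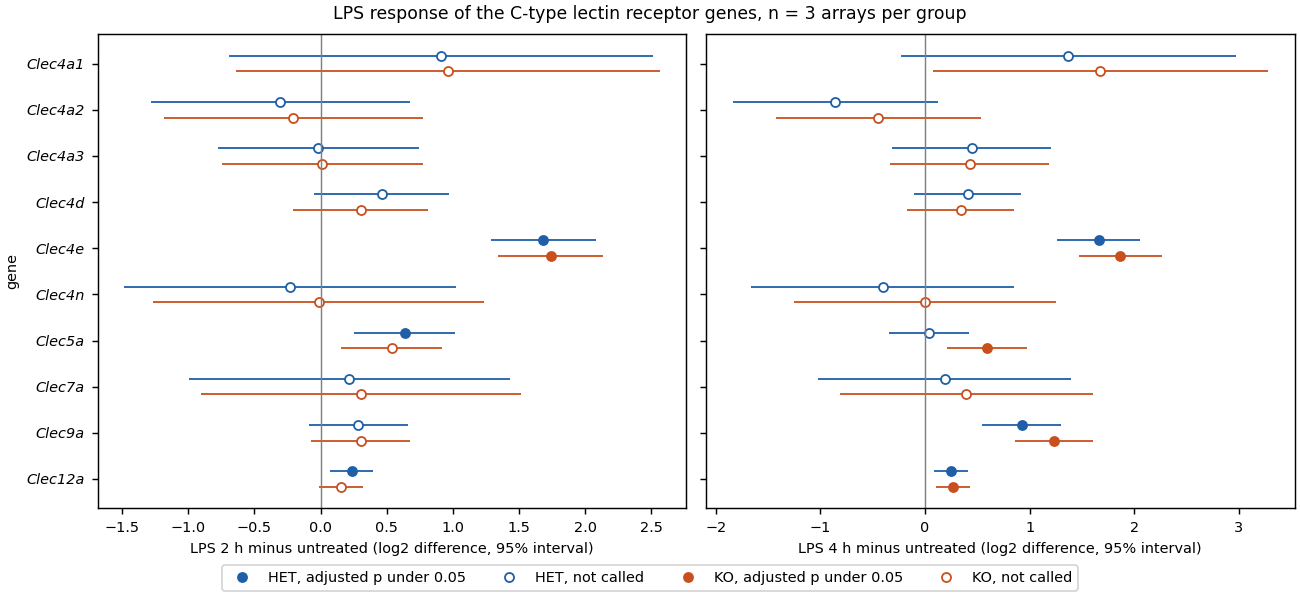
Change with LPS at 2 h (left) and 4 h (right) as a log2 difference from untreated cells of the same genotype, with 95% intervals from limma and n = 3 arrays per group. Filled points passed an adjusted p of 0.05. Clec4e lies between 1.66 and 1.87 in all 4 comparisons, and the intervals of Clec4a1, Clec4n and Clec7a are the widest.

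The first receptors are those that signal through the adaptor FcRgamma. Clec4e encodes Mincle, which binds the mycobacterial cord factor and a protein released by dying cells. Its signals in untreated HET cells were 12.29, 11.79 and 12.63 for replicates 1, 2 and 3, and in untreated KO cells 11.88, 12.58 and 11.85. After 2 h of LPS they were 14.03, 13.88 and 13.85 in HET and 13.83, 13.81 and 13.89 in KO. After 4 h they were 13.92, 13.90 and 13.87 in HET and 13.95, 14.00 and 13.98 in KO. All 12 stimulated arrays lay above all 6 untreated ones, and the untreated arrays of both genotypes covered the same range.

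Clec4e rose by 1.68 (SE 0.186) in HET at 2 h and by 1.74 in KO, or 3.22-fold and 3.34-fold. At 4 h the changes were 1.66 in HET and 1.87 in KO, or 3.16-fold and 3.65-fold. These 4 calls held in all 11 alternative analyses and whichever of the 18 arrays was left out, with an adjusted p of at most 0.00924. The largest SD between arrays of a stimulated group was 0.0964 and the SD of the untreated groups 0.421 in HET and 0.415 in KO, so the spread between arrays was smaller after LPS. The change from 2 h to 4 h was −0.02 in HET and 0.13 in KO, within its error. Clec4e was already among the highest signals of the array after LPS, up to the 99.8th percentile of genes, and how far the probes still rise with the amount of RNA at that level was not tested.

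By the likeness of the 6 group means, each centred on their average, the genes closest to Clec4e were Ccl3, a chemokine (root mean square difference 0.0564), Tlr2, the receptor for bacterial lipopeptides (0.0753), and Rassf4 (0.0945). This compares 6 means only.

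Clec4d encodes the receptor MCL, which pairs with Mincle. Its untreated signals were 12.43, 11.54 and 12.13 in HET and 12.002, 12.186 and 11.814 in KO. The arrays at 2 h read 12.88, 12.01 and 12.60 in HET and 12.32, 12.44 and 12.14 in KO. At 4 h they were 12.75, 12.03 and 12.54 in HET and 12.19, 12.54 and 12.29 in KO. The groups overlapped in all comparisons but KO at 4 h, where all 3 arrays lay just above the untreated ones, and HET replicate 2 was the lowest HET array at every time.

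In the test without pairing, the change of Clec4d did not pass: 0.46 (SE 0.24, adjusted p = 0.244) in HET at 2 h, 0.41 (0.187) in HET at 4 h, 0.30 (0.718) in KO at 2 h and 0.34 (0.412) in KO at 4 h. Arrays of 1 genotype with the same replicate number moved together over all genes. Within such numbered sets Clec4d was higher after LPS in 6 of 6, by 0.26 to 0.47 at 2 h and by 0.19 to 0.49 at 4 h. With the numbered set as a fixed term it passed in all 4 comparisons, with adjusted p = 0.000332, 0.000385, 0.0188 and 0.00295 in the same order. As a random block it passed in HET (0.0266 and 0.0270) and not in KO (0.259 and 0.0990).

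Clec4n encodes Dectin-2, a receptor for fungal mannans. Its untreated signals were 10.255, 8.096 and 8.656 in HET and 8.20, 8.09 and 8.05 in KO. At 2 h they were 9.82, 7.57 and 8.92 in HET and 8.09, 8.16 and 8.04 in KO, and at 4 h 9.82, 7.63 and 8.34 in HET and 7.74, 8.41 and 8.18 in KO. HET replicate 1 was the highest of all arrays at each time, the 9 KO arrays stayed between 7.74 and 8.41, and the other HET arrays lay below, within and above that range.

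No LPS change of Clec4n passed without pairing (−0.41 in HET and −0.00 in KO at 4 h, adjusted p = 0.584 and 0.999). The HET change was −0.13 at 2 h in place of −0.23 (adjusted p = 0.882) and −0.39 at 4 h (adjusted p = 0.3996) without HET replicate 1 at all 3 times. With the numbered set as a fixed term, the value in HET at 4 h passed at −0.41 (adjusted p = 0.0392), and all 3 HET sets were lower, by 0.31 to 0.47. In KO, 2 of 3 sets were higher at 4 h.

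Clec5a encodes MDL-1, which signals through the adaptor DAP12. Its untreated signals were 11.76, 11.78 and 11.69 in HET and 12.11, 11.69 and 11.67 in KO. After 2 h of LPS they read 12.43, 12.27 and 12.45 in HET and 12.43, 12.33 and 12.33 in KO. At 4 h they were 11.20, 12.09 and 12.05 in HET and 12.46, 12.35 and 12.43 in KO. All stimulated arrays lay above the untreated ones of their genotype except HET replicate 1 at 4 h, which was the lowest of all 18, and at 4 h every KO array lay above every HET array.

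Clec5a rose by 0.64 (SE 0.179, adjusted p = 0.0243) in HET at 2 h and by 0.59 (adjusted p = 0.0355) in KO at 4 h. In KO at 2 h the change was 0.54 (adjusted p = 0.159). It passed without HET replicate 1 at all 3 times or at 4 h alone, with array weights and with only its own arrays fitted. With the numbered set it passed as a random block (adjusted p = 0.0458) but not as a fixed term (0.0631). The HET call at 2 h was lost when any of 5 arrays was left out: untreated replicate 1 (adjusted p = 0.0526), 2 (0.0559) or 3 (0.0739), or 2 h replicate 1 (0.0812) or 3 (0.0647). The KO call at 4 h was lost without any of 5 arrays, untreated replicate 2 (0.129) or 3 (0.147) or 4 h replicate 1 (0.115), 2 (0.0619) or 3 (0.0936), and after quantile normalization (0.0576).

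In HET at 4 h Clec5a was 0.04 above untreated cells (adjusted p = 0.872), and 0.33 without HET replicate 1 at all 3 times (adjusted p = 0.0593). With the replicate 1 array left out at 4 h alone, the rise in HET at 4 h passed. From 2 h to 4 h it changed by −0.60 in HET (adjusted p = 0.0532) and by 0.05 in KO. HET replicate 1 carried the HET value, with −1.22 against −0.18 and −0.40 in replicates 2 and 3, and without this replicate at all 3 times the change was −0.29 (adjusted p = 0.183). With all arrays the HET change passed with the numbered set as a fixed term (adjusted p = 0.0209) or a random block (0.0139), and with array weights it did not (−0.33, adjusted p = 0.134). Under the fixed term 7.74% of all genes rose and 11.0% fell in HET between 2 h and 4 h.

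Clec7a encodes Dectin-1, the receptor for fungal beta-glucans, which signals through a Syk-binding motif of its own. Its untreated signals were 10.66, 8.71 and 8.44 in HET and 8.73, 8.11 and 8.69 in KO. At 2 h they were 10.60, 8.81 and 9.05 in HET and 9.09, 8.63 and 8.72 in KO, and at 4 h 10.57, 8.99 and 8.81 in HET and 8.96, 8.56 and 9.19 in KO. HET replicate 1 lay between 10.57 and 10.66, and the other 15 arrays between 8.11 and 9.19, with the genotypes overlapping.

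The LPS change of Clec7a was 0.22 and 0.19 in HET at 2 h and 4 h (adjusted p = 0.841 and 0.796) and 0.30 and 0.40 in KO (0.902 and 0.705). The HET changes were 0.36 and 0.33 (adjusted p = 0.401 and 0.286) without HET replicate 1 at all 3 times. With the numbered set as a fixed term the KO value at 4 h passed, at 0.40 (adjusted p = 0.0423), and all 3 KO sets were higher.

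In HET replicate 1, Clec7a was 2.09, 1.67 and 1.67 above the mean of the other HET arrays of its group in untreated cells, at 2 h and at 4 h, and Clec4n was 1.88, 1.57 and 1.83 above it. Over all genes, 39 of 19475 (0.200%) were more than 1 higher in this replicate at all 3 times and 267 (1.37%) more than 1 lower. The lower cell cycle genes and higher MHC class II genes given above stood in the same arrays. Their part in these levels was not tested, and in such bulk samples more cells of a type and more RNA per cell cannot be told apart.

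Clec9a encodes DNGR-1, which binds actin filaments exposed on dead cells and is best known as a marker of a class of dendritic cells. Its untreated signals were 6.21, 6.39 and 5.92 in HET and 6.56, 6.19 and 6.40 in KO. At 2 h they were 6.32, 6.68 and 6.38 in HET and 6.73, 6.65 and 6.66 in KO, and at 4 h 6.83, 7.53 and 6.94 in HET and 7.82, 7.38 and 7.64 in KO. All 6 arrays at 4 h lay above all 12 others, and within each time the genotypes overlapped. The signals lay between the 11.8th and the 43.4th percentile of the genes on their array, so the gene was dim throughout.

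Clec9a rose at 4 h by 0.92 (SE 0.176, adjusted p = 0.000780) in HET and by 1.23 (adjusted p = 0.000139) in KO. The HET change was 1.08 (adjusted p = 0.00105) with replicate 1 left out at all 3 times. All untreated and 2 h arrays, and HET replicates 1 and 3 at 4 h, lay below the lower quartile of their array. The values used here carry no detection call, so whether these signals stood above background was not tested and no fold is given. Between 2 h and 4 h it rose by 0.64 (adjusted p = 0.0355) in HET and by 0.93 (adjusted p = 0.00535) in KO. The calls at 4 h against untreated cells, and the KO call between 2 h and 4 h, held in the 10 alternative analyses that kept the gene and whichever array was left out. The HET call between 2 h and 4 h did not pass after quantile normalization (adjusted p = 0.0792), with only its own 6 arrays fitted (0.270), or without HET 2 h replicate 1 (0.0716) or 3 (0.118) or HET 4 h replicate 2 (0.135).

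The mean of the dendritic cell markers on an array was 7.33 to 7.72 in untreated cells of both genotypes, 7.51 to 8.14 in HET at 4 h and 7.47 to 7.61 in KO at 4 h, and its part in the level of Clec9a was not tested. The genes with group means most like those of Clec9a were Clec1b, which lies in the same stretch of chromosome 6 (root mean square difference 0.155), Ccdc122 (0.161) and St18 (0.171). Clec1b encodes CLEC-2, known as the podoplanin receptor of platelets. Its group means were 6.67, 6.79 and 7.46 in untreated, 2 h and 4 h HET cells and 6.91, 7.37 and 8.37 in KO cells, and it rose by 1.46 in KO at 4 h (adjusted p = 0.000472). Its HET change at 4 h was not among the largest called ones named from the lists, so no HET test of Clec1b is given. The other genes of that stretch that are no members, Clec12b and Clec1a, stayed between 6.74 and 7.36 and between 6.29 and 6.82 on all arrays.

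Clec12a encodes MICL, an inhibitory receptor that recognises uric acid crystals. Its untreated signals were 12.84, 12.80 and 12.62 in HET and 12.80, 12.75 and 12.79 in KO. The arrays at 2 h read 13.07, 12.97 and 12.94 in HET and 12.96, 12.92 and 12.92 in KO, and at 4 h 13.108, 13.005 and 12.890 in HET and 13.061, 12.999 and 13.089 in KO. Every stimulated array lay above every untreated array, by small steps.

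Clec12a rose by 0.24 (SE 0.0767, adjusted p = 0.0494) in HET at 2 h, by 0.25 (adjusted p = 0.0208) in HET at 4 h and by 0.27 (adjusted p = 0.0242) in KO at 4 h, or 1.18-fold, 1.19-fold and 1.21-fold. In KO at 2 h the change was 0.15 (adjusted p = 0.456). Its SD between arrays of a group was 0.0752, smaller than in 18966 of the 19475 genes. All 3 calls were lost after quantile normalization (adjusted p = 0.155, 0.157 and 0.113), and the HET call at 2 h was lost when any of 15 single arrays was left out. The HET call at 2 h was also lost with a trended robust prior and with array weights. Both HET calls were lost with only their own arrays fitted. The HET call at 4 h was lost without HET 4 h replicate 1 or untreated HET replicate 3, and the KO call at 4 h without untreated KO replicate 1, 2 or 3 or 4 h KO replicate 1 or 3.

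Clec4a1, Clec4a2 and Clec4a3 belong to the DCIR family, of which Clec4a2, encoding DCIR itself, carries an inhibitory motif. These genes are close relatives in sequence, and signal shared between their probes was not tested. Clec4a1 had untreated signals of 11.53, 9.38 and 12.22 in HET and 9.16, 12.03 and 9.80 in KO. At 2 h they were 12.24, 11.06 and 12.55 in HET and 10.77, 12.20 and 10.91 in KO, and at 4 h 12.60, 11.84 and 12.80 in HET and 11.63, 12.77 and 11.62 in KO. The same replicates were low at all times, HET replicate 2 and KO replicates 1 and 3, and the low and the high arrays lay closer together after LPS.

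The change of Clec4a1 at 4 h was 1.37 (SE 0.752, adjusted p = 0.158) in HET and 1.68 (adjusted p = 0.166) in KO, which did not pass. In HET it was 1.52 (adjusted p = 0.238) without replicate 1 at all 3 times. Within numbered sets it was higher at 2 h in 6 of 6, by 0.18 to 1.68, and at 4 h in 6 of 6, by 0.58 to 2.47. The sets that began lowest changed most: HET replicate 2 by 2.46 and KO replicate 1 by 2.47, against 0.58 in HET replicate 3 and 0.74 in KO replicate 2, which began highest. With the numbered set as a fixed term the change passed in HET at 2 h (0.91, adjusted p = 0.0490), in HET at 4 h (adjusted p = 0.00294) and in KO at 4 h (adjusted p = 0.00140). As a random block it passed at 4 h in HET (adjusted p = 0.0270) and KO (0.0173). The genes with the most similar group means were Oas1a, an interferon-induced antiviral enzyme (root mean square difference 0.0553), Znfx1 (0.0923) and Pilrb1 (0.0963).

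Clec4a2 had untreated signals of 10.24, 9.47 and 10.69 in HET and 9.19, 10.47 and 9.56 in KO. The 2 h values were 9.59, 9.41 and 10.48 in HET and 9.07, 10.13 and 9.41 in KO, and at 4 h 8.97, 8.94 and 9.91 in HET and 8.68, 10.19 and 9.02 in KO. HET replicate 3 and KO replicate 2 were the highest of their groups at all times, and the groups overlapped in every comparison.

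The change of Clec4a2 at 4 h was −0.86 (SE 0.46, adjusted p = 0.149) in HET and −0.45 (adjusted p = 0.585) in KO. Without HET replicate 1 at all 3 times the HET change was −0.13 at 2 h in place of −0.31, and −0.66 at 4 h (adjusted p = 0.932 and 0.399). It was lower at 4 h in 6 of 6 numbered sets, by −1.27 to −0.28, and with the set as a fixed term it passed at 4 h in HET (adjusted p = 7.36e-05) and in KO (0.0152), and between 2 h and 4 h in HET (−0.55, adjusted p = 0.00701). As a random block it passed in HET at 4 h (adjusted p = 0.0162) and not in KO (0.256). It was the member with the most negative LPS change at 4 h in both genotypes.

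Clec4a3 had untreated signals of 10.70, 9.69 and 10.64 in HET and 9.23, 10.41 and 10.05 in KO. At 4 h they were 11.36, 10.54 and 10.47 in HET and 10.07, 10.45 and 10.45 in KO, and the 2 h arrays lay between 9.46 and 10.84. HET replicate 1 lay between 10.70 and 11.36, and the other 15 arrays between 9.23 and 10.64. The groups overlapped in every LPS comparison. Its change at 4 h was 0.45 (adjusted p = 0.319) in HET, or 0.34 without HET replicate 1 at all 3 times (adjusted p = 0.492), and 0.43 (adjusted p = 0.490) in KO, and 5 of 6 numbered sets were higher. With the set as a fixed term the HET value at 4 h passed (adjusted p = 0.0468).

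With the numbered set as a fixed term, the counts of members that rose were 6 in HET at 2 h, 6 in HET at 4 h, 2 in KO at 2 h and 7 in KO at 4 h. Those that fell were Clec4a2 and Clec4n in HET at 4 h and Clec4a2 in KO at 4 h. More of all genes passed as well: 9.73% rose and 18.1% fell in HET at 2 h, 26.7% and 28.3% in HET at 4 h, 4.13% and 4.01% in KO at 2 h, and 10.7% and 17.9% in KO at 4 h. As a random block the members called were 4, 6, 2 and 5 in the same order, and 2 in HET between 2 h and 4 h. Of all genes 25.6%, 53.7%, 7.3%, 26.0% and 16.4% then passed in either direction. The same direction in all 6 sets was also common, with 13.9% of all genes higher and 18.2% lower at 2 h, and 25.2% higher and 26.6% lower at 4 h.

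The members differed widely in how much arrays of 1 group varied. The SD within groups, pooled over the 6 groups, was 1.03 for Clec4a1, 0.807 for Clec4n, 0.779 for Clec7a, 0.629 for Clec4a2 and 0.485 for Clec4a3, against a median of 0.149 over all genes. Of the 19475 genes, 116 had a larger SD than Clec4a1, 241 than Clec4n, 264 than Clec7a, 425 than Clec4a2 and 775 than Clec4a3. Clec4d (0.323), Clec4e (0.245), Clec5a (0.235) and Clec9a (0.231) lay above the median of all genes and Clec12a below it. HET replicate 1 was the highest array at each time for Clec4n, Clec7a and Clec4a3, and also for Clec4d and Clec12a. For Clec4a1 and Clec4a2 both genotypes held high and low replicates, and within a genotype the order of the replicates at 2 h was that of untreated cells.

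**Figure D3:**
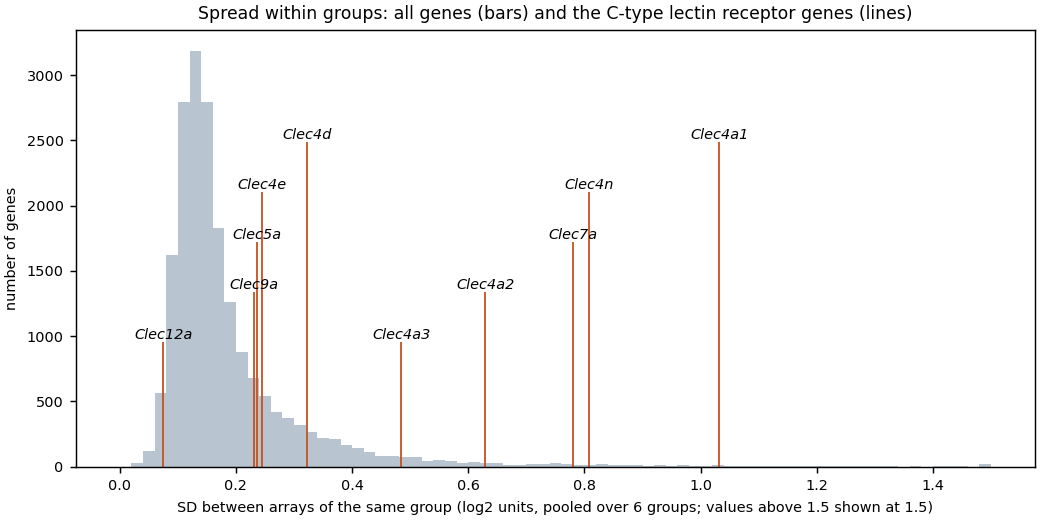
Histogram of the SD between arrays of the same group (log2 units, pooled over the 6 groups) for all 19475 genes, with lines at the 10 C-type lectin receptor genes. The 5 members from Clec4a3 at 0.485 to Clec4a1 at 1.03 lie in the upper tail, and Clec12a at 0.0752 lies near the lower end.

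The comparison of KO with HET asked whether the receptor genes depended on Wbp7. No member passed in untreated cells, at 2 h or at 4 h by limma, where 0.416%, 2.76% and 2.42% of all genes passed in either direction. At an unadjusted p under 0.05 the counts were 0, 0 and 2, the latter Clec5a and Clec9a, against 4.44%, 15.0% and 20.2% of all genes. At 4 h the arrays of KO and HET did not overlap for 3 members, with KO higher for Clec4e and Clec5a and lower for Clec4a3 (−0.47, 95% interval −1.22 to 0.29, adjusted p = 0.436). For Clec4a3, HET replicate 1 was 0.86 above the mean of the other HET arrays at that time. Over all genes the arrays did not overlap in 27.3% at that time. Without HET replicate 1 at all 3 times the counts were again 0 at each time, against 0.606%, 2.14% and 4.52% of all genes. The median KO minus HET difference of the 10 members was −0.26 in untreated cells, −0.24 at 2 h and −0.04 at 4 h, beside −0.02, 0.00 and −0.06 over all genes.

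For Clec5a at 4 h, KO minus HET was 0.63 (SE 0.179, adjusted p = 0.0749, 95% interval 0.25 to 1.01) with no overlap between the arrays. It was 0.34 without HET replicate 1 at all 3 times (adjusted p = 0.131), and it passed without HET 4 h replicate 2 (0.79, adjusted p = 0.0365) or 3 (0.77, adjusted p = 0.0431). For Clec9a at 4 h the difference was 0.52 (adjusted p = 0.127, 95% interval 0.14 to 0.89) and 0.38 without HET replicate 1 (adjusted p = 0.329), and it passed without HET 4 h replicate 2 (0.73, adjusted p = 0.0252).

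The intervals for the other members show what size of genotype difference remained possible. For Clec4e, KO minus HET was −0.13 (95% interval −0.53 to 0.27) in untreated cells, −0.08 (−0.47 to 0.32) at 2 h and 0.08 (−0.32 to 0.47) at 4 h. For Clec12a it was 0.02 (−0.14 to 0.19), −0.06 (−0.22 to 0.11) and 0.05 (−0.11 to 0.21), the narrowest of the members. For Clec4a1 it was −0.71 (−2.31 to 0.89), −0.66 (−2.26 to 0.94) and −0.41 (−2.01 to 1.19), so that differences of over 2-fold in either direction lay within the interval at 4 h.

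For Clec7a, KO minus HET was −0.76 (−1.97 to 0.45) in untreated cells and −0.06 without HET replicate 1 at all 3 times. For Clec4n the values were −0.89 (−2.14 to 0.36) and −0.26. The larger values thus rested on that replicate. At 4 h both turned from negative to positive without it, from −0.55 to 0.00 for Clec7a and from −0.48 to 0.13 for Clec4n.

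**Figure D4:**
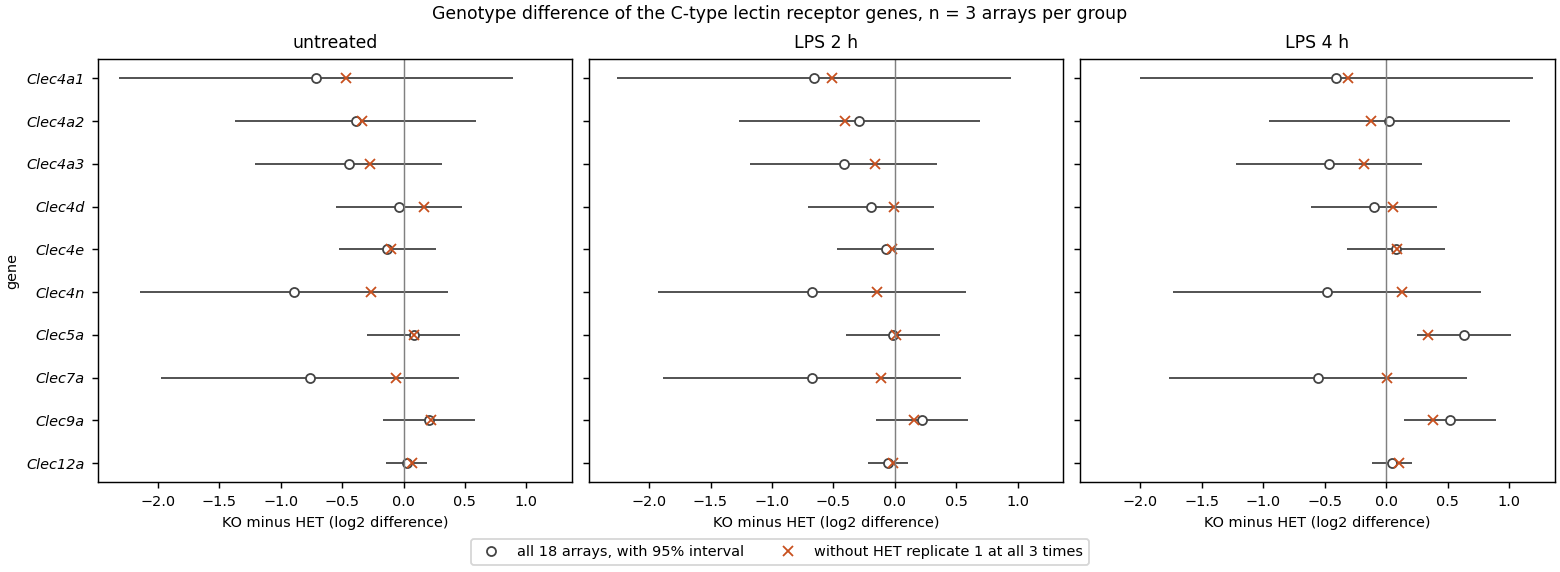
KO minus HET log2 difference of the 10 genes in untreated cells, at 2 h and at 4 h, with 95% intervals from all 18 arrays (open circles) and the value without HET replicate 1 at all 3 times (crosses). No member passed at any time, and the crosses of Clec7a and Clec4n lie closer to 0 than the circles.

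Whether the genotypes differed in their LPS response was tested directly. No member passed at 2 h, where 0.0% of all genes passed, or at 4 h, where 0.0513% passed. At an unadjusted p under 0.05 there were 0 members at 2 h, against 5.64% of all genes, and 1 at 4 h, against 7.2%. This was Clec5a (0.55, 95% interval 0.01 to 1.09, adjusted p = 0.684). For Clec4e the difference in response was 0.06 (95% interval −0.51 to 0.62) at 2 h and 0.21 (−0.35 to 0.77) at 4 h. In the change from 2 h to 4 h, a contrast added after the values of Clec5a were seen, no member passed and 0.00513% of all genes did, with Clec5a at 0.65 (unadjusted p = 0.0218, 95% interval 0.11 to 1.19) and 3.64% of all genes at an unadjusted p under 0.05. The value for Clec5a was 0.34 (adjusted p = 0.928) when HET replicate 1 was left out at all 3 times.

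The signalling partners of these receptors were taken as a list of 25 genes, of which 23 were measured. In HET, 5 rose and 5 fell at 2 h, where 5.56% of all genes rose and 10.0% fell, and 6 rose and 7 fell at 4 h, where 15.7% and 20.7% did. In KO, 4 rose and 1 fell at 2 h, against 2.0% and 1.35% of all genes, and 4 rose and 6 fell at 4 h, against 6.48% and 9.28%. With HET replicate 1 left out at all 3 times, the counts that rose and fell were 5 and 5, 6 and 9, 4 and 3, and 5 and 9 in the same order. The counts over all 19475 genes were then 947 and 1831, 2719 and 4197, 692 and 936, and 1875 and 3512. The paracaspase Malt1 rose most, by 2.60 in HET and 1.93 in KO at 2 h (adjusted p = 3.27e-07 and 1.66e-05). The kinase Syk itself rose by 0.98 in HET and 0.74 in KO at 2 h, and Bcl10 by 0.71 and 0.61. The tyrosine kinase Src rose in HET by 1.61 at 2 h and 2.27 at 4 h. In KO Src passed at neither time with all arrays, and at 4 h it passed without HET replicate 1 at all 3 times.

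Among the partners that fell were the transcription factor Nfatc1 (−0.82 in HET and −0.69 in KO at 2 h, −1.24 and −1.16 at 4 h) and its relative Nfatc2 (−1.80 in HET and −1.26 in KO at 4 h). The lipid phosphatase Inpp5d, also called SHIP1, fell, with −1.91 in HET and −1.11 in KO at 4 h, as did the adaptor Card9 in KO at 4 h (−0.81). Between 2 h and 4 h, 1 partner rose and 5 fell in HET, and 4 fell in KO, with Card9 at −0.61 in HET and −0.56 in KO. Over all genes 3.8% rose and 4.39% fell in HET over that interval, and 1.69% fell in KO. Without HET replicate 1 at all 3 times, 1 partner rose and 5 fell in HET, and 3 rose and 6 fell in KO. Of all 19475 genes, 979 then rose and 1712 fell in HET, and 909 rose and 1497 fell in KO.

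Of the 23 partners, none differed between KO and HET in untreated cells, where 0.416% of all genes passed in either direction. The shares of all genes were 2.76% at 2 h and 2.42% at 4 h. At 2 h, 1 was higher in KO, Rubcn (0.59, adjusted p = 0.0349), a regulator of autophagy-related uptake. At 4 h, Inpp5d (0.65, adjusted p = 0.0404) and the exchange factor Vav2 (0.64, adjusted p = 0.0468) were higher and the kinase subunit Pik3cd lower (−0.82, adjusted p = 0.0226). Without HET replicate 1 at all 3 times, Rubcn (0.40, adjusted p = 0.0736) and Vav2 (0.43, adjusted p = 0.0685) did not pass, while Inpp5d (0.41, adjusted p = 0.0350) and Pik3cd (−0.67, adjusted p = 0.00517) did. Over all genes 0.606%, 2.14% and 4.52% passed under that setting in untreated cells, at 2 h and at 4 h. No partner passed in the test of the difference in LPS response at 2 h or 4 h.

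A list of 51 other C-type lectin genes, 48 of them measured, gave 7 higher and 1 lower in HET at 2 h, 13 and 2 in HET at 4 h, 3 and 1 in KO at 2 h, and 7 and 1 in KO at 4 h. The shares of all genes, higher and lower, were 5.56% and 10.0%, 15.7% and 20.7%, 2.0% and 1.35%, and 6.48% and 9.28% in that order. The counts were 5 and 1, 13 and 1, 3 and 1, and 9 and 1 without HET replicate 1 at all 3 times. Those over all 19475 genes were then 947 and 1831, 2719 and 4197, 692 and 936, and 1875 and 3512. The activation marker Cd69 rose by 5.13 in HET and 5.22 in KO at 2 h, the oxidised lipoprotein receptor Olr1 by 3.59 and 3.29, and Clec2d by 2.03 and 2.28. Thrombomodulin, encoded by Thbd, changed by −1.86 and −1.54. Of this list, 13 genes lay below the lower quartile on all arrays, among them Clec4a4 and Clec4b1 of the stretch that holds Clec4a1 to Clec4e, and Clec1a of the other. In KO against HET, Cd69 was lower in untreated cells (−1.09, adjusted p = 0.0187) and at 2 h (−1.002, adjusted p = 0.0144), Clec2i was higher at 2 h (0.95, adjusted p = 0.0492), and Klrk1, the receptor NKG2D, was lower at 4 h (−1.71, adjusted p = 0.00638). Over all genes 0.416%, 2.76% and 2.42% passed in either direction in untreated cells, at 2 h and at 4 h. Clec2i did not pass without HET replicate 1 at all 3 times (0.85, adjusted p = 0.127). Colec12, not called with all arrays, passed as higher in KO at 2 h and at 4 h without that replicate. Over all genes 2.14% and 4.52% then passed at these times. Under the same setting Cd69 passed in untreated cells (−0.86, adjusted p = 0.0484) and at 2 h (−0.95, adjusted p = 0.0144), as did Klrk1 at 4 h (−1.52, adjusted p = 0.00202).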

How the data were processed

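The values were log2 signals of 25344 probe sets on 18 arrays, deposited by the authors after RMA normalization in Partek 6.5, per the submitters' processing notes; they were used without further scaling. The sources used here do not give the genome build or the settings. Of the probe sets, 2677 had no gene and 1530 several, and were left out. For 915 genes with several probe sets the one with the highest mean was used, leaving 19475 genes; all 10 receptor genes had 1. The 6 groups were fitted with limma 3.58.1 in R 4.3.3 (lmFit and eBayes, 12 residual and 3.165 prior degrees of freedom), two-sided, with Benjamini-Hochberg adjustment over all genes of a contrast and a threshold of 0.05. Intervals are 95%, from the moderated SE. Tables and figures used Python 3.11.15 and matplotlib 3.10.9. The script was tested on simulated data.

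The receptor genes and the gene lists were chosen with earlier results of these data known. Every receptor gene is named; from other lists, at most the 6 called genes with the largest difference per contrast; likeness names 3 genes for each receptor gene whose group means span at least 1 log2 unit. Replicate numbers paired arrays within a genotype: deviations from group means of same-numbered arrays correlated at 0.32 to 0.80 in all 18 pairs, over all genes. Between genotypes, the 9 correlations at the same time were −0.34 to 0.25, with 2 over 0.1. The 18 at different times were −0.35 to 0.39, with 4 over 0.1. Both signs occurred, so numbers were not taken to pair genotypes. Alternatives were centring, quantile normalization, a filter on dim genes (mean signal under the 40th percentile), averaging probe sets, a trended robust prior, array weights, fitting only a contrast's arrays, the replicate number as a block over all arrays or within genotype, HET replicate 1 left out, and each array left out. The fixed term for the numbered set and the contrast of the change from 2 h to 4 h between genotypes, and the list counts without HET replicate 1, were added after seeing the data.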

Additional observations from a re-analysis of the deposited data

Results flagged for a closer look

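The change of Clec5a from 2 h to 4 h went one way in all HET arrays and the other way in all KO arrays with the same replicate number. It was −1.2207, −0.1768 and −0.3963 in HET replicates 1, 2 and 3, and 0.0313, 0.0177 and 0.1004 in KO replicates 1, 2 and 3. The KO values were smaller than the SD of 0.235 between arrays of a group. The test of the difference itself gave 0.65 (SE 0.254, limma unadjusted p = 0.0218) and did not pass over all genes (adjusted p = 0.9998). With the 3 arrays of HET replicate 1 left out the difference was 0.34 (adjusted p = 0.928). The groups hold 3 arrays each, too few for a search for single outlying arrays.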

How the results depend on the processing

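Of 120 member differences (10 genes in 12 contrasts), 13 passed and 7 of these passed in every alternative that kept the gene: the 4 of Clec4e, and Clec9a at 4 h in both genotypes and between 2 h and 4 h in KO. No called difference changed sign. Of 3438 recomputed values, 3166 kept direction and side, 46 lost a call, 38 gained one and 188, passing in neither, changed sign. Leaving out 1 array at a time, the count of members called ranged from 0 to 2 for KO minus HET at 4 h, 1 to 3 for HET at 2 h, 2 to 3 for HET at 4 h, 1 to 2 for KO at 2 h, 2 to 4 for KO at 4 h and 0 to 2 for HET between 2 h and 4 h; in the other contrasts it did not change. The count for HET between 2 h and 4 h, 1 as reported, was 2 after centring, 2 with the trended prior and 0 with only its own arrays. That for KO between 2 h and 4 h fell from 1 to 0 with dim genes left out, since Clec9a was then not tested. KO at 4 h, 4 as reported, was 2 after quantile normalization. KO at 2 h, 1 as reported, was 2 with array weights, with only its own arrays, and without HET replicate 1. The causes were not tested.

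With the replicate block over all arrays no count changed. With the replicate block within genotype as a random term the counts were 4 for HET at 2 h, 6 for HET at 4 h, 2 for KO at 2 h, 5 for KO at 4 h and 2 for HET between 2 h and 4 h. As a fixed term they were 6 for HET at 2 h, 8 for HET at 4 h, 2 for KO at 2 h, 8 for KO at 4 h and 3 for HET between 2 h and 4 h. The fixed term could not be fitted for KO minus HET at 1 time, where the random term left the counts at 0, and neither term gave a call in the tests of the difference in response. The dim signal of Clec9a, at most at the 43.4th percentile of an array, and the array count limit what smaller changes can be seen.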
